A study of Mus musculus with 4 samples.

Results

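Of 23961 cells past a quality filter, 203 were taken as naive-like T cells without Cd8. The cells came from 4 single-cell RNA libraries of live CD45-positive cells, that is immune cells, sorted from C57BL/6 mouse hearts with the atria removed. The mice were PD1 Het or PD1 KO, carrying a deletion of PD1 on 1 or on both chromosomes, and had sham surgery or a myocardial infarction (MI) on postnatal day 2. The hearts were taken 7 days later. Each of the 4 groups, Het_sham, KO_sham, Het_MI and KO_MI, holds 1 library, so differences between groups could not be checked against replicates or tested. The labels do not say how many animals or which sexes entered a library, nor which part of Pdcd1 was deleted.

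Membership was set by UMIs (unique molecular identifiers, counted RNA molecules) in each cell. A cell needed at least 500 UMIs, at least 200 genes and at most 10% mitochondrial UMIs. It needed at least 4 UMIs of Cd3d, Cd3e, Cd3g, Trac and Trbc2 together, which encode the T cell receptor complex, and at least 2 of Lef1, Satb1 and Dapl1 together. It could hold no UMI of Cd8a or Cd8b1, and none of the thymocyte genes Rag1, Rag2, Dntt and Ptcra. Upper limits of 1 UMI of Nkg7 and Trdc, 1 of Cd79a and Cd79b, 3 of Ly6c2 and under 10 UMIs of C1qa, C1qb and C1qc per 10000 kept out NK, gamma-delta, B, monocyte and macrophage profiles. The levels of these genes therefore describe the choice and are no findings.

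Naive T cells are mature T cells that have left the thymus and have not yet met their antigen. They circulate between blood and lymphoid organs, held in that state by the transcription factors TCF-1 (Tcf7) and LEF1 and guided by the homing receptor CCR7 and the egress receptor S1PR1. T cells that lack CD8 are mostly CD4 helper cells, a lineage that also includes FOXP3-positive regulatory T cells, and innate lymphoid cells share part of their transcriptome without an antigen receptor.

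The libraries held 7745, 7787, 6157 and 8379 barcodes in the order Het_sham, KO_sham, Het_MI, KO_MI, with 52701847 to 72002420 UMIs each. Between 7 and 16 barcodes were shared by any pair of libraries, and 1 of them was a member. The members held 426956, 525213, 381071 and 95800 UMIs in that order, with medians of 4951.5, 5115.5, 5472 and 4515 UMIs per cell. KO_MI stood apart in its sex-linked RNA: its members held 0 UMIs of Y-linked genes against 46, 72 and 61 in Het_sham, KO_sham and Het_MI, and Xist stood at 887 UMIs per 1000000 member UMIs (CPM) against 124, 308 and 163. Genotype, infarction, animal and sex mix cannot be told apart in a contrast with KO_MI. Pdcd1 was nearly absent from the members, with 3, 2, 0 and 0 UMIs, and checks nothing here, since a 3' tag can lie outside the deleted part.

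The markers given for these cells were present in most of them. Tcf7 (chr11:52252371-52283014, minus strand, build GRCm38), which was not used to choose cells, had a UMI in 53 of 60, 57 of 72, 43 of 51 and 12 of 20 members. Cd28 (chr1:60716800-60773359, plus strand), the co-stimulatory receptor of T cells, had one in 43, 49, 36 and 10. In macrophages chosen by C1q genes, whose median depth was higher (8067 to 9962.5 UMIs), Tcf7 had a UMI in 1.11% to 9.90% of cells and Cd28 in 3.70% to 5.30%. With every cell thinned to 2000 UMIs, Tcf7 would be seen in 63.1%, 51.0%, 58.6% and 42.3% of members and in at most 2.66% of macrophages. Cd28 would be seen in 37.9%, 37.5%, 37.7% and 36.5% of members. Its share was thus nearly equal over libraries once depth was equal, while 2 members of KO_MI under 2000 UMIs were left out of the thinned values. Dapl1 was found in 10, 12, 10 and 2 members, so it is a marker of few of them.

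Some members went against the name. A list of type 2 innate lymphoid cell (ILC2) genes, such as Il1rl1, Areg and Rora, reached at least 10 UMIs per 10000 in 14 members. Rora was found in 100% of these 14 cells and Il1rl1, the IL-33 receptor, in 92.9%, which describes the choice by that list. The same cells had Tcf7 and Trac in 7.14% each and Cd4 in 0%. They passed the T cell part of the rule largely without Trac, the constant region of the alpha chain. A list of regulatory T cell genes reached the same level in 23 members, 5 of which were also high in the ILC2 list. In the 18 high in the regulatory list alone, Ikzf2 was found in 88.9%, Ctla4 in 55.6%, Foxp3 in 33.3% and Cd4 in 55.6%. Levels of regulatory genes such as Ikzf2, Ctla4 and Foxp3 likewise describe the choice, both in these 18 and in the members left over. The same holds for ILC2-list genes such as Rora and Areg wherever members high in these lists are left out. The remaining 171 members had Tcf7 in 90.1%, Ms4a4b in 88.3%, Cd28 in 71.3%, Ccr7 in 55.0%, Cd4 in 53.8% and Foxp3 in 0.585%. Most of these 171 cells thus held the naive genes Tcf7, Ms4a4b and Cd28, but not every one carries the naive profile that the label names. Only 113 of them were also free of markers of other lineages and of doublet calls. Both levels are ranges, not types: 9 more members lay at 5 to 10 UMIs per 10000 of the ILC2 list and 23 at that level of the regulatory list.

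The odd cells were spread unevenly. Members high in either list made up 11.7% (7 cells) of Het_sham, 12.5% (9) of KO_sham, 17.6% (9) of Het_MI and 35.0% (7) of KO_MI, with an exact interval of 15.4% to 59.2% in KO_MI. Of the 28 members with exactly 2 UMIs of Lef1, Satb1 and Dapl1, 16 were high in either list. They were 1 of the 7 listed cells in Het_sham, 2 of 9 in KO_sham, 8 of 9 in Het_MI and 5 of 7 in KO_MI. Just outside, 33 cells had 1 such UMI, 19 had 1 Cd8 UMI and 19 had 1 UMI of the thymocyte genes. The median sum of Lef1, Satb1 and Dapl1 was 9, 7, 7 and 4 UMIs, lowest in KO_MI.

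Marker genes of other lineages were also found. Members with at least 3 UMIs of such a list are called below those holding RNA of another lineage. Whether these UMIs came from other cells or from the members themselves was not tested. At least 3 UMIs of the marker list of another lineage were held by 72 members (17, 31, 20 and 4), most often monocyte markers (39 members), macrophage markers (37) or B cell markers (19). Their median depth was 8442.5 UMIs against 5010 in all members, and the doublet caller Scrublet marked 5 members. The erythroid list stood at 0, 7.62, 7.87 and 20.9 CPM. The fibroblast list stood at 0, 7.62, 336 and 10.4 CPM, with 7, 5, 1 and 6 of its 7 genes at 0 and 94.5% of its UMIs in Het_MI from 1 cell. The cardiomyocyte list held 11, 15, 3 and 1 UMIs, from 6, 4, 3 and 1 members, though none of these UMIs was of Myh6, the cardiomyocyte myosin. Free of both lists, of other lineages and of doublet calls were 113 members, 38, 37, 27 and 11. Their part in the differences below was not tested beyond the values given without them.

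**Figure D1:**
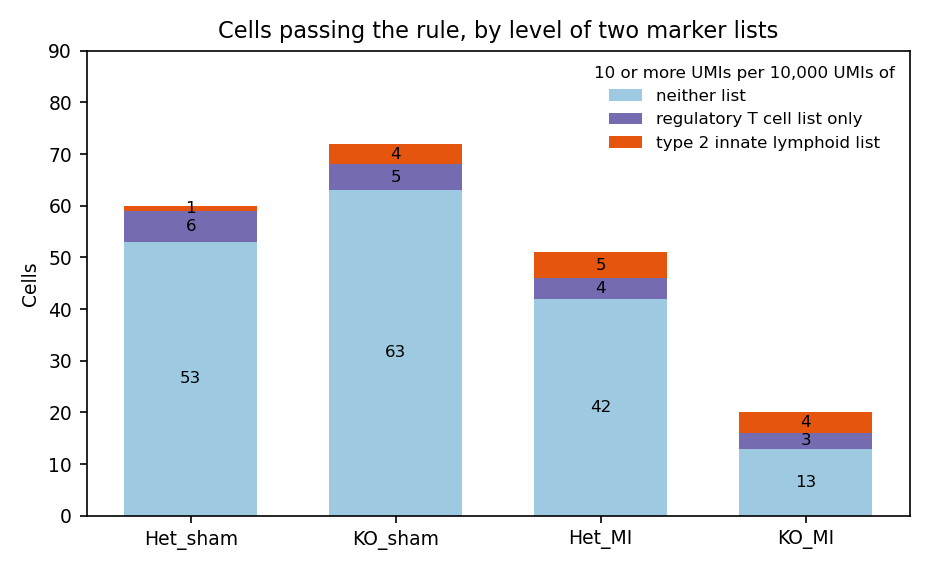
Number of members in each library (vertical axis), stacked by those high in the ILC2 list, those high in the regulatory list alone and those high in neither, with the number of cells printed on each block. KO_MI has 13 of 20 members high in neither list, against 53 of 60 in Het_sham, 63 of 72 in KO_sham and 42 of 51 in Het_MI.

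Members were scarcest in KO_MI. They made up 60 of 5376 cells in Het_sham (1.12%, exact 95% interval 0.853% to 1.43%), 72 of 6407 in KO_sham (1.12%, 0.880% to 1.41%), 51 of 5074 in Het_MI (1.01%, 0.749% to 1.32%) and 20 of 7104 in KO_MI (0.282%, 0.172% to 0.434%). The intervals of the first 3 libraries overlapped, and that of KO_MI lay below them all. The ratio of shares was 0.280 for KO_MI over Het_MI (0.167 to 0.469) and 0.251 for KO_MI over KO_sham (0.153 to 0.411). It was 0.901 for Het_MI over Het_sham (0.621 to 1.31) and 1.01 for KO_sham over Het_sham (0.716 to 1.42). With every cell thinned to 2000 UMIs these ratios to Het_sham were 0.552 and 0.610. Thinning also lets in cells that lose the Cd8, thymocyte or other UMIs that the rule limits. Members numbered 63 in Het_sham, 48 in KO_sham, 35 in Het_MI and 18 in KO_MI after it, so these ratios do not show depth alone. These intervals cover counting error only, and a share of sorted cells moves with every other cell type in the sort.

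Other denominators kept KO_MI lowest. Among T cells, members were 11% of 544, 25.8% of 279, 17.1% of 298 and 4.26% of 469. That denominator moved with thymocyte-like cells, which numbered 191, 22, 51 and 121. Among T cells with no UMI of the 4 thymocyte genes, members were 27.6%, 30.1%, 23.4% and 7.17%. Per 100 B cells, members numbered 9.40, 6.86, 6.85 and 2.89. Members high in neither the ILC2 nor the regulatory list numbered 53, 63, 42 and 13.

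**Figure D2:**
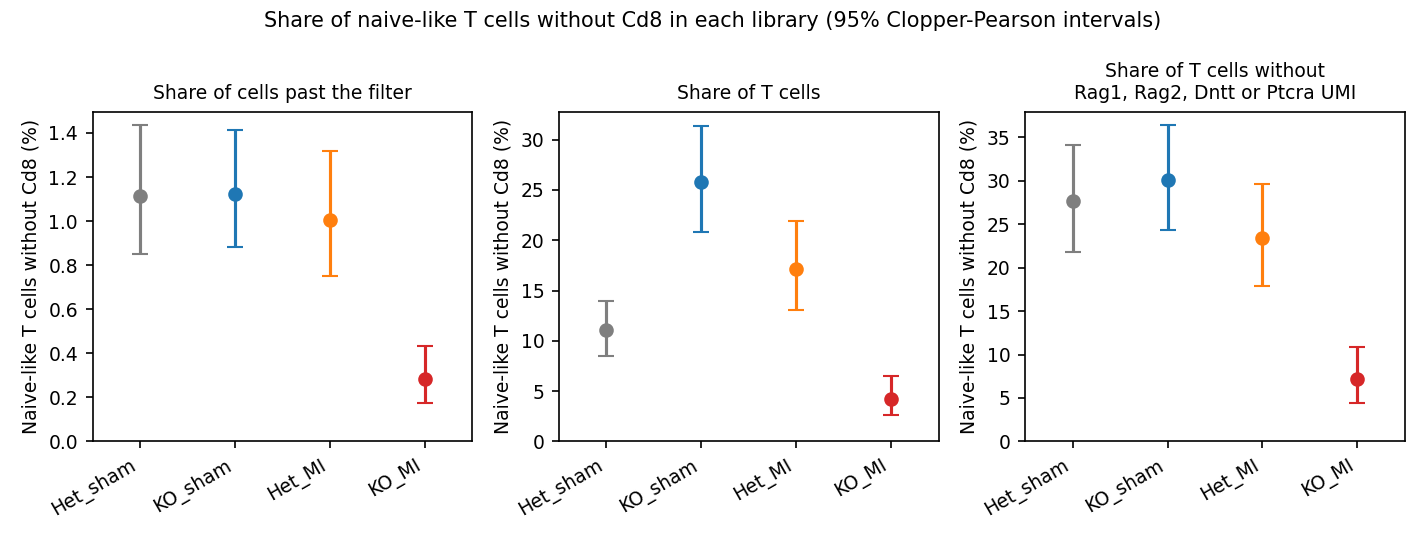
Members as a share of cells past the filter, of T cells, and of T cells with no UMI of the 4 thymocyte genes (percent, vertical axes) in each library, with exact 95% intervals that cover counting error only. KO_MI is lowest in each panel, at 0.282%, 4.26% and 7.17%.

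Helper lineage genes came first among what the rule did not use. Cd4, the helper co-receptor, had a UMI in 33, 34, 27 and 8 members (55.0%, 47.2%, 52.9% and 40%), at 131, 89.5, 118 and 136 CPM. The levels differed little, and no library contrast of Cd4 lay past 1.5-fold with its whole interval. Macrophages held a Cd4 UMI in 9.18% to 13.2% of cells and B cells in 0.134% to 1.41%. Zbtb7b, the helper lineage factor, was sparse at 3, 5, 6 and 1 UMIs, and Cd40lg, the helper ligand for B cells, at 7, 6, 1 and 2. Foxp3 stood at 3, 5, 8 and 0 UMIs in 1, 3, 4 and 0 members. Set to 3 cells, a bound other than the exact interval of the shares, the 0 of 20 in KO_MI would be a share of 15.0% of cells with a UMI.

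Of the naive regulators, Tcf7 stood at 475, 339, 386 and 261 CPM, lowest in KO_MI. Its log2 ratio was −0.56 for KO_MI over Het_MI, with an interval of −1.24 to 0.05 that includes no difference. Lef1 (chr3:131110471-131224356, plus strand) stood at 426, 289, 276 and 303 CPM, and the chromatin organiser Satb1 (chr17:51736187-51833290, minus strand) at 857, 716, 745 and 668. Both were used by the rule and are given as a description only. Klf2, a factor that drives S1pr1, stood at 408, 289, 186 and 209 CPM. It was lower in Het_MI than in Het_sham by more than 1.5-fold with its whole interval, at a log2 ratio of −1.13 (−1.55 to −0.72). Without members high in the ILC2 or regulatory list that ratio was −0.85, and without members holding RNA of another lineage −0.82. In neither of these sets was Klf2 past 1.5-fold with its whole interval.

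The receptors of recirculation were of similar level in the first 3 libraries. Ccr7 stood at 192, 177, 257 and 157 CPM and Il7r, the receptor for the survival cytokine IL-7, at 143, 177, 213 and 178. Cd28 was nearly flat at 234, 194, 213 and 230 CPM. S1pr1, the receptor for exit from tissue into lymph, stood at 89.0, 99.0, 113 and 10.4 CPM, from 38, 52, 43 and 1 UMI in 22, 33, 25 and 1 members. It was lower in KO_MI than in both libraries it was set against, at −3.43 over Het_MI (−8.77 to −0.88) and −3.25 over KO_sham (−8.58 to −0.70) on the log2 scale. Without members high in the ILC2 or regulatory list the ratios were −2.67 and −2.56 and were no longer past 1.5-fold with the whole interval. For KO_MI over Het_MI the call of S1pr1 was also lost without members holding RNA of another lineage. There 0 of 16 measured genes of the naive and recirculation list were past 1.5-fold. Igfbp4, a naive T cell gene that encodes a binding protein of insulin-like growth factors, stood at 426, 208, 199 and 93.9 CPM. It was lower in Het_MI and in KO_sham than in Het_sham, by −1.10 (−1.50 to −0.70) and −1.04 (−1.39 to −0.69). Without members holding RNA of another lineage those ratios were −0.49 and −0.56.

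**Figure D3:**
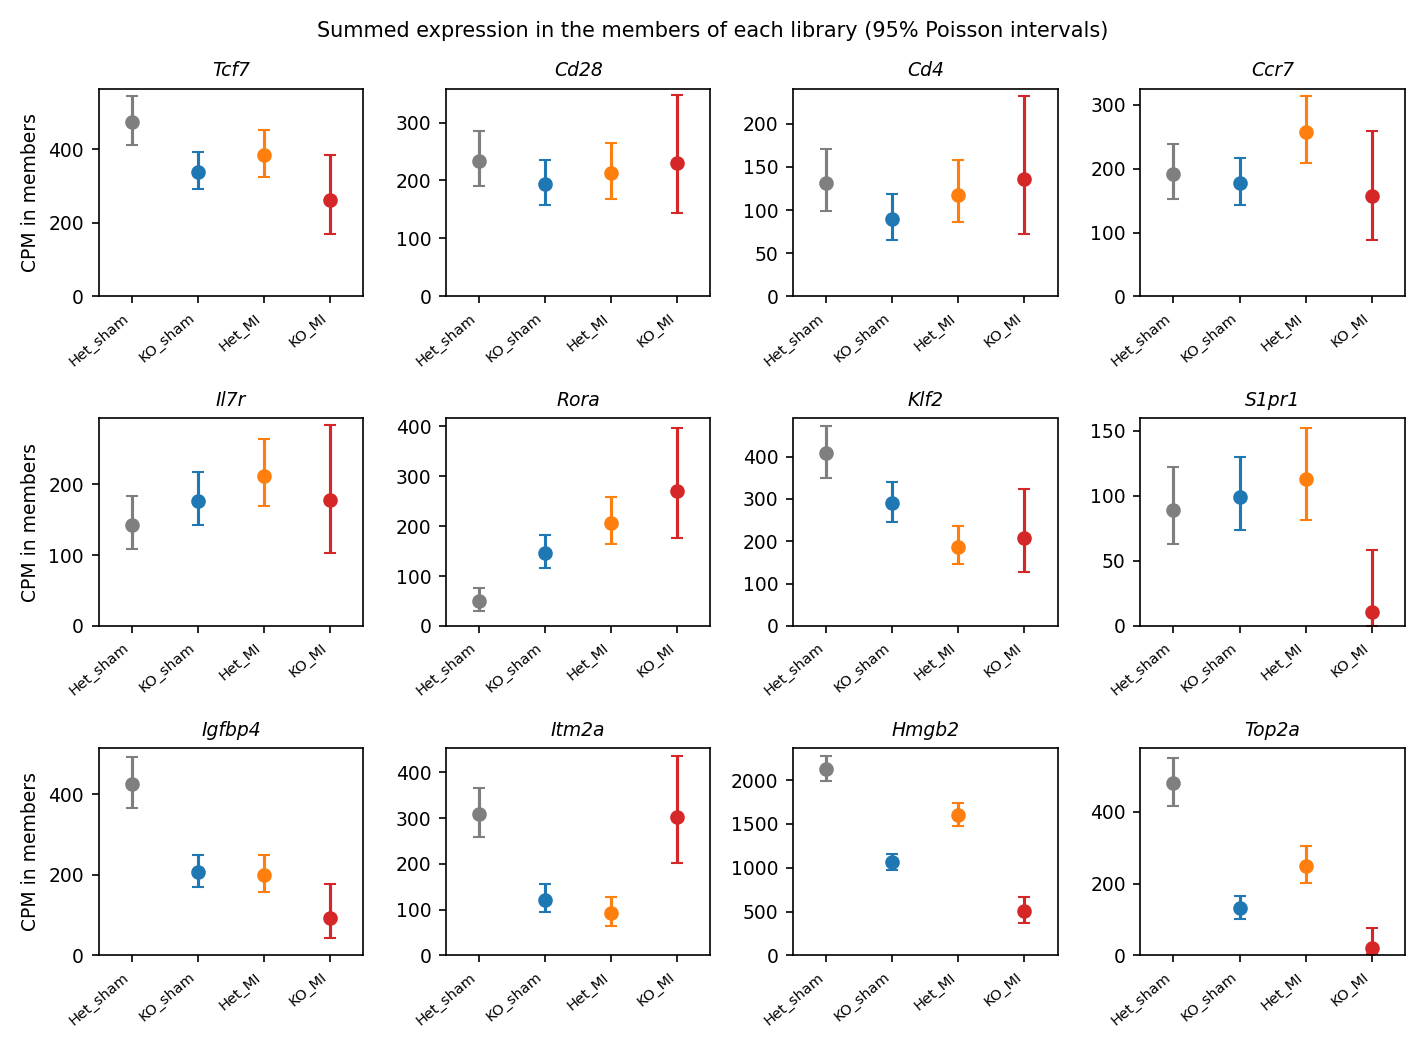
Levels of single genes in the members of each library, in CPM of member RNA (vertical axes) with exact 95% Poisson intervals. S1pr1 is at 10.4 CPM in KO_MI and at 89.0 to 113 in the other libraries, and Cd28 lies between 194 and 234.

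Members were next set against 3 other kinds of T cell from the same libraries, with UMIs summed per library and tested with edgeR's quasi-likelihood test with library as a block and Benjamini-Hochberg adjustment. Here the 4 libraries are the replicates, and they differ in genotype and surgery. A gene was called at an adjusted p of at most 0.05, and genes of the rule were left out.

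The first set was the Cd8 counterpart: 59 cells that met the rule but held a Cd8 UMI (27, 16, 9 and 7). Only 5 of 1672 genes passed the test, 4 higher in members (0.239%) and 1 lower (0.0598%), while 173 had an unadjusted p under 0.05. Of 4-fold changes put into simulated counts for this comparison, 91% were found, but of 2-fold changes 21%, so there smaller differences were mostly out of reach. The simulated counts had a fixed spread and no differences between libraries, and only the more abundant genes were changed. These shares therefore do not measure what the real sums could show. Igfbp4 stood at 426, 208, 199 and 93.9 CPM in members and at 118, 49.3, 92.2 and 0 in the counterpart. It was higher in members in all 4 libraries, by 1.78 on the log2 scale (SE 0.45, adjusted p = 0.0285 in edgeR). Epsti1, an interferon-induced gene, was lower by 1.48 on the log2 scale (log2 ratio −1.48, SE 0.36, adjusted p = 0.0163). Without the KO_sham library neither call was kept, at 1.72 and −1.61 on the log2 scale, nor was that of Epsti1 without Het_sham (−1.32). The filter on low counts left Igfbp4 untested without Het_sham and without cells holding RNA of another lineage.

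The actin-binding gene Tmsb4x (0.48, SE 0.09, adjusted p = 8.03e-05 in edgeR) and Cst3 (2.64, SE 0.48, adjusted p = 4.65e-05) were also higher in members. Cst3 and the fourth gene, Cd74, which encodes the class II invariant chain, are abundant in macrophages and dendritic or B cells. Without cells holding RNA of another lineage no gene was called (54 had an unadjusted p under 0.05), and Tmsb4x stood at 0.18. Cd4, which splits these lineages, had a UMI in 50.2% of members and 10.2% of the counterpart. Its log2 ratio was 1.77, higher in 4 of 4 libraries, with an adjusted p of 0.16 in edgeR. Klrd1, an NK receptor chain of Cd8 cells, went the other way at −2.15 in 4 of 4 libraries (adjusted p = 0.154). Tcf7 (−0.17, SE 0.24), Cd28 (0.18, SE 0.25), Il7r (0.06, SE 0.36) and S1pr1 (−0.07, SE 0.37) did not pass. Of the naive and recirculation list, 1 of 16 measured genes passed, at a median of −0.06 against 0.01 over all genes tested.

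Thymocyte-like T cells differed from the members in far more genes. This set of 385 cells (191, 22, 51 and 121) held at least 2 UMIs of the 4 thymocyte genes, and 169 of them had a high level of cell division genes, against 20 of the 203 members. Of 4682 genes, 843 were higher in members (18.0%) and 739 lower (15.8%). Ccr7 stood at 192, 177, 257 and 157 CPM in members and at 1.91, 0, 0 and 4.75 in thymocyte-like cells. The groups did not overlap, and the log2 ratio was 6.29 (SE 0.99, adjusted p = 7.61e-08 in edgeR). Il7r was higher by 4.38 (SE 0.71), Klf2 by 3.89 (SE 0.66), the membrane protein gene Ms4a4b by 6.33 (SE 0.94) and Cd28 by 2.21 (SE 0.41). Tcf7 was lower, at −0.62 (SE 0.19, adjusted p = 0.00664 in edgeR). In all, 14 of 15 measured genes of the naive and recirculation list were higher and 1 was lower, at a median of 3.01 against −0.03 over all genes.

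Antigen display genes were higher in members. In the MHC class I list 10 of 13 genes were higher in members (median 1.77) and none lower. B2m, the light chain of MHC class I, stood at 1454, 1525, 1517 and 1305 CPM against 390, 303, 326 and 495 (log2 ratio 2.16, SE 0.37). H2-K1 was higher by 3.27 and H2-D1 by 2.94. Of the interferon-induced list, 7 of 9 were higher (median 1.78), and of the immediate early list 15 of 18 (median 1.13), among them Cd69 at 3.16. Tmsb4x (2.40), Tmsb10 (3.16), Shisa5 (4.19) and S100a6 (3.35) were the other genes with the smallest p among those higher in all 4 libraries.

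The genes with the smallest p among those lower in all 4 libraries included Ly6d at −6.41 on the log2 scale (adjusted p = 7.61e-08 in edgeR), Aqp11 at −6.31, Arpp21 at −5.99, the transcription factor gene Myb at −3.66, Cd24a at −2.63 and Hmgb1 at −1.99. The thymic homing receptor Ccr9 was at −2.13 and the transcription factor Sox4 at −1.54. Of the late thymocyte and recent emigrant list, 9 of 15 were lower and 5 higher, among the latter Itm2a at 3.20. Of the DNA synthesis and mitosis list, 16 of 18 were lower at a median of −1.25. T cell receptor genes were divided: Trbc1 (−1.11), Lat (−1.20) and Lck (−1.10) were lower, while Cd5 (3.09) and Cd2 (3.07) were higher. Without cells holding RNA of another lineage, 767 genes in place of 1582 were called.

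The third set was 59 other Cd8-negative cells that met the rule but held no UMI of Lef1, Satb1 or Dapl1 (8, 12, 15 and 24). By its genes this was mostly another cell type: 46 of the 59 were high in the ILC2 list, and 4 held a Cd4 UMI. High in either the ILC2 or the regulatory list were 52. The split by the naive genes Lef1, Satb1 and Dapl1 also parts the sets in advance. The naive genes higher and the ILC2 genes lower in members therefore describe that choice in part, and their p-values are no independent finding. Of 1913 genes, 73 were higher in members (3.82%) and 112 lower (5.85%). Tcf7 stood at 475, 339, 386 and 261 CPM in members against 28.2, 0, 74.1 and 40.6, a log2 ratio of 3.30 (SE 0.87, adjusted p = 0.00593 in edgeR). Ccr7 (4.48), Cd4 (3.8), Lck (3.09) and Cd28 (2.90) were higher as well, and 10 of 14 genes of the naive and recirculation list passed (median 2.65 against −0.00 over all genes). Il7r, which ILC2s also use, did not pass (−0.46, SE 0.24). Gramd3 (6.17), Igfbp4 (4.20), Ms4a6b (3.47), Ms4a4b (3.29), Tmsb10 (0.98) and the nuclear RNA Malat1 (0.50) had the smallest p among the higher genes.

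Lower in members were genes of the ILC2 programme. Rora stood at 49.2, 147, 207 and 271 CPM against 578, 753, 1103 and 801, a log2 ratio of −2.42 (SE 0.60). Gata3, the type 2 master factor, was at −2.25, the growth factor gene Areg at −3.59, Arg1 at −3.99 and the IL-33 receptor gene Il1rl1 at −2.96, and 4 of 5 measured genes of the ILC2 list were lower. Rgs1, a brake on chemokine receptor signalling, had the smallest p (−2.98, SE 0.60, adjusted p = 0.00116 in edgeR), followed by Pxdc1 (−3.13), Junb (−1.06), Samsn1 (−2.18), Nrgn (−4.09) and Nabp1 (−2.02). Of 18 immediate early genes 5 were lower, and of 10 effector genes 5. The number of calls, 185, was 44 without the Het_MI library and 116 without KO_sham.

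**Figure D4:**
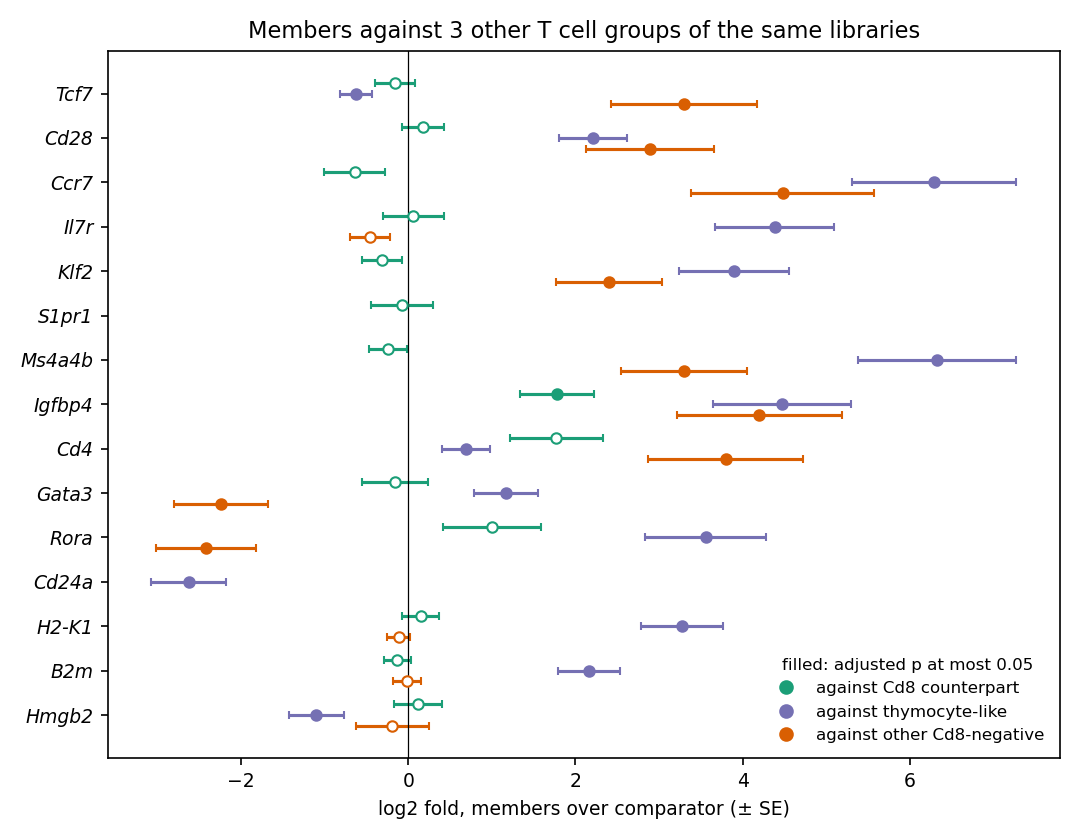
Log2 ratio of members over each of the 3 comparison sets (horizontal axis) for 15 genes, with bars of 1 SE and filled points for an adjusted p of at most 0.05 in edgeR. Ccr7 is at 6.29 over thymocyte-like cells and 4.48 over other Cd8-negative cells, and at −0.64 over the Cd8 counterpart, where it did not pass.

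Gene levels within the members were then set between libraries. A gene counted as past the fold where the whole counting interval of its log2 CPM ratio lay beyond 1.5-fold and it had at least 20 UMIs over both libraries. The contrasts of infarction and genotype share libraries, so their values are given side by side and are not independent. Many genes past the fold came from 1 cell. As a further description, chosen after the values were seen, genes were set apart that stayed past the fold without their top cell, without members holding RNA of another lineage, and without members high in the ILC2 or regulatory list. For these kept genes only the interval was asked for in the reduced sets. The minimum of 20 UMIs was not applied again there, and some of them, such as Nrbf2, fell below it.

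For KO_MI over Het_MI, the knockout after infarction, 14 of 2899 genes were higher (0.483%) and 44 lower (1.52%). Without the top cell of each gene, 1 was higher and 56 were lower. That setting takes away 1 of 20 KO_MI members but 1 of 51 Het_MI members for each gene. The median over all genes was −0.31 under it, so the direction of these counts cannot be read alone. Only 2 stayed past the fold in all 3 reduced sets, Xist and Hmgb2. Hmgb2, a chromatin protein of dividing cells, stood at 2129, 1066, 1603 and 501 CPM in the 4 libraries, lowest in KO_MI, and its ratio was −1.68 (−2.13 to −1.25). The DNA synthesis and mitosis list moved the same way, with 9 of 15 measured genes lower, none higher and a median of −1.51 against −0.10 over all genes. Top2a, the mitotic topoisomerase, was at 480, 131, 249 and 20.9 CPM. Dividing members, with at least 100 UMIs per 10000 of that list, numbered 9, 5, 5 and 1, and without them the list stood at 2243, 2655, 2094 and 1913 CPM. Without members holding RNA of another lineage, 1 of 6 genes of the list was lower, at a median of −1.30.

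Ranked by the interval bound nearest 0, the first genes for KO_MI over Het_MI included ones known from other lineages. The neutrophil genes S100a8 (34 UMIs in 1 KO_MI cell against 1 UMI) and S100a9 (51 against 3, 96.1% in 1 cell) and the myeloid cystatin Stfa1 (27 against 0) were higher. So were Lyz2, with 95.8% of its KO_MI UMIs in 1 cell, and the ILC2-listed Hs3st1 (22 against 3 UMIs in 2 and 1 cells). The class II genes of antigen-presenting cells were lower, with 0 against 648 UMIs for Cd74, 0 against 304 for H2-Eb1, 0 against 290 for H2-Ab1 and 1 against 347 for H2-Aa, in 5 to 9 Het_MI members. Eln, an elastic fibre gene, had 634 UMIs in 1 Het_MI cell and 0 in KO_MI. The thymic emigrant gene Itm2a was past the fold at 1.72, with 69.0% of its KO_MI UMIs in 1 cell, and at 0.50 without its top cell.

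Of 16 measured genes of the naive and recirculation list, S1pr1 alone was past the fold in both contrasts with KO_MI, and the list's median was −0.49 for KO_MI over Het_MI and −0.59 for KO_MI over KO_sham, against −0.10 and −0.13 over all genes. KO_MI also had the largest share of ILC2 and regulatory list cells. The interferon-induced list had medians of −0.01, 0.01, −0.08 and −0.07 for KO_MI over Het_MI, Het_MI over Het_sham, KO_sham over Het_sham and KO_MI over KO_sham. That of MHC class I had −0.08, −0.07, −0.02 and −0.06. No gene of either list was past the fold in any of the 4 contrasts. Over all genes tested, only 0.483% to 1.32% were past it upward and 0.844% to 1.52% downward. Lists this short would mostly hold none at such shares, so their lack of such genes says little. The same shares stand beside the 1 gene of the naive and recirculation list.

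For Het_MI over Het_sham, infarction in heterozygotes, 58 of 4466 genes were higher (1.30%) and 42 lower (0.940%), and 10 stayed past the fold in the reduced sets. S100a4, a calcium-binding protein gene of activated and memory T cells, stood at 108, 918, 842 and 438 CPM in 8, 18, 15 and 8 members, lowest in Het_sham. Its ratio was 2.97 (2.52 to 3.45). The chemokine gene Cxcl2 had 34 UMIs in 13 Het_sham members and 328 in 22 Het_MI members (3.43, 2.92 to 3.99). The cell cycle inhibitor Cdkn1a was higher by 2.06 (22 against 6 cells with a UMI), the transcription factor Rora by 2.08, the receptor P2ry10 by 2.03, Samsn1 by 1.71, Tmem64 by 1.31 and fibronectin (Fn1) by 2.86. Fn1 had only 26 against 4 UMIs. In Het_MI 34.6% of Fn1 UMIs and 35.7% of Cxcl2 UMIs were in 1 cell. Whether the UMIs of these 2 genes came from the members or from other cells was not tested. The heat shock genes Hspa1b (−1.89) and Hsp90aa1 (−1.0) were lower.

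In the effector list 6 of 13 genes were past the fold upward in this contrast, at a median of 1.36 against −0.08 over all genes. Without members high in the ILC2 or regulatory list 3 of 11 were, at a median of 0.12, and without members holding RNA of another lineage 2 of 6, at 1.08. Icos, the inducible co-stimulator, stood at 56.2, 112, 168 and 188 CPM, and its ratio was 1.58 (0.88 to 2.32). Without members high in the ILC2 or regulatory list it was 0.82 and no longer past the fold with the whole interval. In the naive and recirculation list Klf2 and Igfbp4 were past the fold downward, and the list's median was −0.10. Of the late thymocyte and recent emigrant list, 3 of 14 genes were past the fold downward (median −0.69), the lowest being Ccr9 at −2.30, and 0 of 11 were without members holding RNA of another lineage. Of the T cell receptor and signalling list 1 of 13 was, Lat at −1.12 (median −0.43), a call lost both without members high in the ILC2 or regulatory list and without those holding RNA of another lineage. Eln (634 UMIs in 1 cell), Ifitm1 (91 in 1 cell), Sparc (98.4% of 62 UMIs in 1 cell) and Col1a2 (96.7% of 30) were the other genes with the largest lower bounds upward. S100a8, S100a9, Stfa1, Cstdc4 and Cstdc5 were those downward, from 2 to 6 Het_sham members.

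For KO_sham over Het_sham, the knockout without infarction, 65 of 4907 genes were higher (1.32%) and 66 lower (1.35%), and 10 stayed past the fold in the reduced sets. Cxcl2 (1060 against 34 UMIs, in 23 and 13 members), S100a4 (3.09, 2.65 to 3.56), Nrbf2 (2.87) and Ptgs2 were higher. Ptgs2, which encodes the prostaglandin enzyme COX-2, had 97 UMIs in 7 members, 42.3% of them in 1 cell, against 0 in Het_sham. The lower counting limit of its log2 ratio was 4.39, and the ratio with the 0 set to 3 UMIs was 4.72. That ratio was 3.15 without members high in the ILC2 or regulatory list and 3.23 without those holding RNA of another lineage. The replication histone genes Hist1h2ap (−3.61), Hist1h1b (−2.41), Hist1h1a (−2.37) and Hist1h3c (−1.56) and the replication factor Pclaf (−1.62) were lower, as was the stress gene Zfand2a (−2.62). The DNA synthesis and mitosis list had 9 of 18 genes lower at a median of −1.09 (all genes −0.06). Without members holding RNA of another lineage it had 1 of 10 (median −0.50), and without members high in the ILC2 or regulatory list 12 of 17 (median −1.81). Dividing members, 9 in Het_sham and 5 in KO_sham, were in all these sets unless removed for another reason. With them the list stood at 7949 CPM in Het_sham and 4465 in KO_sham. Without them it stood at 2243 and 2655, no longer lower in KO_sham, though dividing members were chosen by this same list. Of the effector list 5 of 12 genes were past the fold upward (median 0.92), and without members high in the ILC2 or regulatory list 4 of 11. With members holding RNA of another lineage left out, 1 of 5 was (median 0.58). In the same contrast 4 of 8 genes of the macrophage list (median 0.90) and 4 of 5 of the dendritic cell list (median 1.41) were past the fold upward, and their part in the effector list's ratios was not tested. Areg (188 against 8 UMIs, log2 ratio 4.26) stood at 1.20 without members high in the ILC2 or regulatory list. Areg is itself in the ILC2 list, so that fall describes the removal. S100a9, S100a8 and Cstdc5 were the first 3 of those lower when ranked by the interval bound nearest 0, from 3, 6 and 2 Het_sham cells.

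For KO_MI over KO_sham, infarction in the knockout, 26 of 3556 genes were higher (0.731%) and 30 lower (0.844%). Without the top cell of each gene, 4 were higher and 75 lower, where 1 of 20 KO_MI members but 1 of 72 KO_sham members is taken away for each gene. In all, 2 stayed past the fold in the reduced sets, Xist and Mndal. Mndal, an interferon-inducible gene of the Ifi200 family, had 4 UMIs in 4 KO_MI members against 97 in 45 KO_sham members, a log2 ratio of −2.15 (−4.05 to −0.74). S100a9, Stfa1 and S100a8 were highest by their lower bound, nearly all from 1 KO_MI cell. Cd74, H2-Eb1 and H2-Ab1 had 0 UMIs in KO_MI against 1093, 530 and 516 in 7 to 12 KO_sham members.

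**Figure D5:**
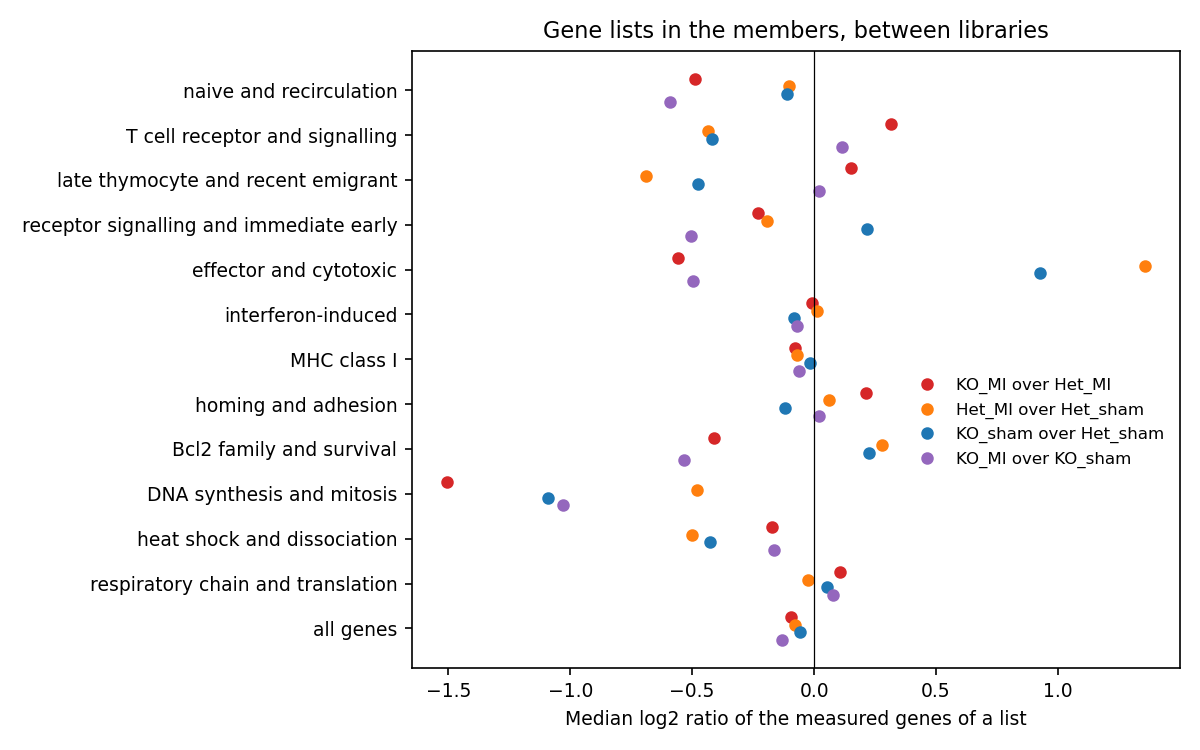
Median log2 ratio (horizontal axis) of each gene list within the members for the 4 library contrasts, 1 point per contrast, with the median of all measured genes in the bottom row. DNA synthesis and mitosis genes lie below all genes in each contrast (medians −1.51, −0.48, −1.09 and −1.03), while the interferon-induced and MHC class I lists lie within 0.1 of 0.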

How the data were processed

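The values deposited by the authors are raw, unnormalized UMI counts of 32285 genes in each barcode. Cell Ranger 6.1.1 and Seurat 4 are named per the submitters' processing notes, and Cell Ranger 4.0.0 per the file headers. How cells were called is not given in the sources used here, and neither is the aligner setting. Gene coordinates came from the GENCODE annotation of GRCm38. The members, gene lists and comparisons were chosen with earlier results of these data known.

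UMIs were summed per library. Library ratios carry exact conditional binomial 95% intervals, shares Clopper-Pearson, ratios of shares Katz log and levels Poisson intervals, which cover counting error only. A UMI count of 0 was set to 3 for a bound. Sums of classes were tested with edgeR 4.0.16 (TMM, filter on low counts, library as block, R 4.3.3) and with DESeq2 1.42.0 as an alternative. The pair of sums of a library shares its cells' source, hence the block. A planned minimum of 10 comparator cells per library was not met for the Cd8 counterpart and the other Cd8-negative cells, so a minimum of 5 was chosen after seeing the data.

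Scrublet (scanpy 1.11.5) called 139, 0, 1 and 6 cells at its automatic threshold and so did not work in 3 libraries. A threshold at 0.8% per 1000 barcodes marked 301, 379, 186 and 392 cells. Marked members were kept and left out as an alternative. High in a list means at least 10 UMIs per 10000 of the cell's UMIs. Other alternatives were normalization, filters, single libraries left out, other limits of the rule, and reduced sets of members.

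Named genes were the rule genes, the given markers, Cd4, Foxp3 and Pdcd1. To these came the genes with the interval bound farthest from 0 among those past 1.5-fold, up to 5 in each direction for Het_MI over Het_sham and for KO_MI over Het_MI, and up to 3 for the others. In class comparisons, genes with the smallest p that moved the same way in 4 libraries were named, and in lists the most abundant, highest and lowest. Mitochondrial, ribosomal, haemoglobin, sex-linked, receptor segment and unnamed genes were left out of ranks. S1pr1, Klf2, Igfbp4, Itm2a, Icos, Xist, Klrd1 and the genes kept in all reduced sets were singled out after their values were seen. The test scripts were tested on simulated data.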

Additional observations from a re-analysis of the deposited data

Results flagged for a closer look

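For infarction over sham, 100 of 4466 genes were past 1.5-fold in the members of Het hearts and 56 of 3556 in those of KO hearts. In 13 genes the ratio was past 1.5-fold in both, in opposite directions. With 1 library per group the difference between genotypes was not tested. The values are log2 ratios, Het first and KO second. Higher after infarction in Het and lower in KO were 6 genes of myeloid or antigen-presenting cells: Cst3 (0.88 and −2.98), Ifi30 (1.80 and −2.29), Cd74 (1.23 and −6.05), H2-Aa (0.90 and −6.78), H2-Ab1 (1.13 and −4.97) and H2-Eb1 (1.07 and −5.01). In Het_sham 89.0% of Cd74 UMIs, 95.2% of H2-Aa, 99.3% of H2-Ab1 and 91.4% of H2-Eb1 UMIs were in 1 member. KO_MI had 0 UMIs of Cd74, H2-Ab1 and H2-Eb1, so those KO values are set at 3 UMIs.

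The neutrophil genes S100a8 (−6.82 and 4.96), S100a9 (−5.22 and 5.81) and Stfa1 (−4.16 and 5.62) went the other way. In KO_MI 100% of S100a8, 96.1% of S100a9 and 96.3% of Stfa1 UMIs were in 1 member, and Het_MI had 0 Stfa1 UMIs.

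S100a4 (2.97 and −1.07) and the chemokine genes Cxcl2 (3.43 and −2.39) and Ccl4 (2.19 and −3.57) were spread over more members. Both S100a4 and Cxcl2 were lowest in Het_sham. Without members holding RNA of another lineage, S100a4 stood at 3.41 and 1.53, and Cxcl2 at 3.61 and −0.91. Itm2a was lower in Het and higher in KO (−1.75 and 1.31), and stood at −1.47 and 0.36 without its top cell.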

How the results depend on the processing

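KO_MI kept the lowest share of cells under 9 alternatives, at 0.183% to 0.334%, with a ratio over Het_MI of 0.200 to 0.381 and over KO_sham of 0.183 to 0.352. Without members holding RNA of another lineage, shares were 0.80%, 0.640% and 0.611% in Het_sham, KO_sham and Het_MI. With every cell thinned to 2000 UMIs, a choice made after seeing the data, shares were 0.801% in KO_sham and 0.726% in Het_MI, and the ratios to Het_sham were 0.610 for KO_sham and 0.552 for Het_MI. Thinning also lets in cells that lose UMIs the rule limits, and the share in Het_sham rose to 1.31%.

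Genes past 1.5-fold numbered 58 for KO_MI over Het_MI, 100 for Het_MI over Het_sham, 131 for KO_sham over Het_sham and 56 for KO_MI over KO_sham. Without members holding RNA of another lineage the first 3 were 23, 38 and 19. With no minimum of UMIs, 97, 177 and 85 genes passed for KO_MI over Het_MI, Het_MI over Het_sham and KO_MI over KO_sham. With Cd4-positive members only, 56 passed for KO_sham over Het_sham and 36 for KO_MI over KO_sham, and with at least 3 UMIs of Lef1, Satb1 and Dapl1, 54 for Het_MI over Het_sham. Lyz2 for KO_MI over Het_MI turned to −0.81 without its top cell. Of 235 list medians under alternatives, 10 moved. That of MHC class I turned upward without other-lineage RNA (0.30 for KO_MI over Het_MI).

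Against the Cd8 counterpart, 5 calls became 8 with DESeq2, 59 with no filter on low counts, 0 without other-lineage RNA, 30 in libraries with at least 10 comparator cells (a choice made after seeing the data) and 2 to 11 with 1 library left out (2 without KO_sham, 11 without KO_MI). Against thymocyte-like cells, 1582 became 767 without other-lineage RNA and 1041 to 1461 with 1 library left out (1041 without Het_MI). Against other Cd8-negative cells, 185 became 408 with no filter on low counts and 44 to 274 with 1 library left out.

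The block pairs the sums of a library by source. Without the replicate block, calls were 2 for the Cd8 counterpart, 1867 for thymocyte-like cells and 274 for other Cd8-negative cells. The Cd8-counterpart calls of Cst3 (2.60) and Igfbp4 (1.56) were lost. The groups of the study share no pairing, since each has 1 library. The causes of these changes were not tested. Not run were a counterpart with at least 3 Cd8 UMIs and the other Cd8-negative comparison without other-lineage RNA or without listed cells, which left too few cells.

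The 20 KO_MI members and their 95800 UMIs limit every contrast with that library, and sparse genes such as Foxp3, Zbtb7b and Pdcd1 cannot be compared.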

Other observations

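Some members held type 17 and gamma-delta genes. At least 10 UMIs per 10000 of that list were found in 0, 3, 6 and 2 members of Het_sham, KO_sham, Het_MI and KO_MI.

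Dividing members overlapped with the regulatory list, which was high in 7 of 20 of them. Tcf7 had a UMI in 55.0% of dividing members, and Cd4 and Rora in 50% each. Y-linked genes and Xist, given above, differed between libraries and were left out of ranked genes.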
